A study of Homo sapiens with 6 samples.

Results

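The genes described here are 71 ribosome biogenesis factors measured in 786-O renal cancer cells with and without stable knockdown of YB1. They are the genes that the deposited expression table places in the KEGG pathway for ribosome biogenesis in eukaryotes (hsa03008), after nuclear export factors, translation initiation factors, ribosomal proteins and RAN were set aside. The table lists 20030 genes, 81 of them in this pathway, and the 10 set aside were EIF6, NXF1, NXF2, NXF2B, NXF3, NXF5, NXT1, NXT2, RAN and XPO1. No FPKM value picked an individual gene, but the group was selected on this same contrast after earlier results of it were known. The counts of members that follow are therefore a description, and nothing is inferred from them about the pathway. For 52 of the 71 members this pathway is the only one listed, and 19 carry others as well, such as RNA transport for the RNase P subunits.

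The 786-O line is an established line from a clear cell renal cell carcinoma, grown to passages 16 to 18 and sequenced as bulk mRNA. Stable cells were made by lentivirus and puromycin selection with a short hairpin RNA against YB1 (shYB1, 3 libraries) or with a control vector whose hairpin is given as scrambled in the labels (vector, 3 libraries). The series text mentions several independent hairpins, whereas the labels give a single shYB1 group. Nothing says that replicates came from separate cultures, so p-values measure the spread between these libraries, which may be technical, and in bulk RNA fewer cells of a type and less RNA per cell cannot be told apart.

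Ribosomes are assembled in the nucleolus, where RNA polymerase I transcribes a long precursor that is modified, cut and folded into the rRNAs of the small and large subunits. The small-subunit processome (the UTP-A, UTP-B, UTP-C and MPP10 complexes with the U3 snoRNP) gathers on the precursor as it is made, box C/D and box H/ACA snoRNPs guide methylation and pseudouridylation, and a chain of GTPases and AAA ATPases matures the large subunit for export. Growing and tumor cells keep these factors at high levels. YB1, the product of YBX1, is a cold shock domain protein that binds RNA and was first described through its binding to the Y box, an inverted CCAAT motif.

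The targeted gene was lower in every knockdown library. YBX1 stood at 366, 373 and 378 FPKM (fragments per kilobase of transcript, scaled to the mapped fragments of the library) in the vector libraries and at 167, 166 and 173 FPKM in the shYB1 libraries. It fell by 1.14 on the log2 scale (SE 0.031, adjusted p = 1.53e-08, limma with Benjamini-Hochberg adjustment). FPKM totals over all listed genes ranged from 282736 to 295887 per library. The genes chosen as markers of a renal clear cell carcinoma line, PAX8 (75.6 to 78.7 FPKM), EPAS1, VIM, KRT8, KRT18 and CA12, were all present. CA12, a carbonic anhydrase, was lower in shYB1 cells (121 ± 2.78 FPKM in vector and 107 ± 1.18 FPKM in shYB1, SD, n = 3 each, log2 fold change −0.18, adjusted p = 0.00266, limma). Of the 6 markers of other cell types, CDH5 was listed at 0 in all libraries and PTPRC, PECAM1, ALB and PDGFRB stayed at or under 0.406 FPKM. The exception was COL6A3, a collagen chain abundant in fibroblasts, at 188, 196 and 190 FPKM in vector and 228, 227 and 218 FPKM in shYB1 cells (log2 fold change 0.23, SE 0.032, adjusted p = 0.000795, limma), and the part of COL6A3 or CA12 in the results was not tested.

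Ribosome biogenesis factors were more often higher than lower in shYB1 cells, by small amounts. Of the 71 members, 63 passed the filter of a mean of at least 1 FPKM, and 21 of these 63 (33.3%) were higher in shYB1 at an adjusted p under 0.05 by limma, against 18.7% of the 10439 genes tested. By the same test 0 members were lower, against 6.93% of all genes tested. At an unadjusted p under 0.05 the members lower also numbered 0, and the share of all genes at that threshold was not taken. Members above 0 numbered 56 of 63 (88.9%), against 64.1% of all genes, and the median log2 fold change was 0.145 against 0.055. The range ran from −0.10 for AK6 to 0.47 for GAR1, a 1.39-fold difference. The median of the 21 called members was 0.25 and that of the absolute values of all genes called was 0.247, so members that rose did so by the usual size of a called change in these libraries.

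Part of the excess of higher genes in the whole table depends on how the libraries are scaled. Size factors by median of ratios lay between 0.968 and 0.993 for vector and between 1.019 and 1.024 for shYB1, and dividing by them moved log2 fold changes by about 0.056. Among all genes called, the share that was higher went from 73.0% to 47.9%. With that scaling 13 of the 63 members (20.6%) were higher, against 11.2% of all genes, and 1 (CSNK2A3) was lower, against 12.2% of all genes. The members' median was then 0.088 and that of all genes −0.001. The 13 members were GAR1, NOP56, TCOF1, GTPBP4, REXO2, UTP6, DKC1, UTP18, WDR3, UTP4, SBDS, WDR43 and POP7, and the same 13 stayed called when any 1 of the 6 libraries was left out. The other 8 called members (GNL3L, LSG1, BMS1, IMP4, EMG1, HEATR1, CSNK2B and NOP58) lost the call after rescaling and in 2 to 5 of the 6 fits that left out a library.

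**Figure D1:**
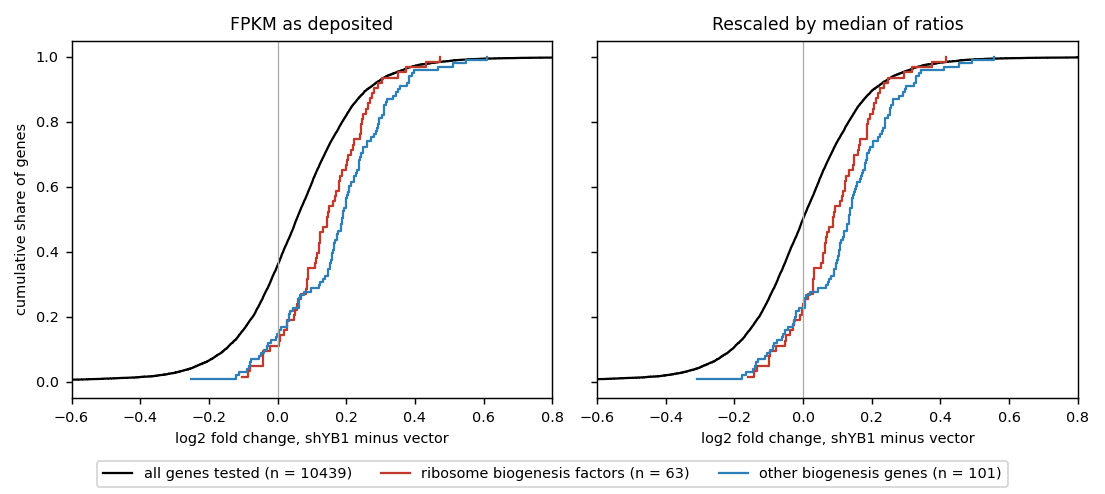
Cumulative share of genes (vertical axis) by log2 fold change of FPKM + 0.1, shYB1 minus vector (horizontal axis), for all 10439 genes tested, the 63 tested ribosome biogenesis factors and 101 other biogenesis genes, with FPKM as deposited (left) and after median-of-ratios rescaling (right). Over most of the range the curves of both biogenesis groups lie to the right of the curve of all genes, with medians of 0.145 and 0.188 against 0.055 on the left and 0.088 and 0.133 against −0.001 on the right.

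The shift was present in each knockdown library. Taken relative to the vector mean of each gene on the log2 scale, the members' median was 0.14, 0.153 and 0.151 in the shYB1 libraries, where all genes tested had medians of 0.053, 0.058 and 0.056. In the shYB1 libraries 52, 56 and 52 of the 63 members (82.5%, 88.9% and 82.5%) lay above their vector mean, against 62.6%, 64.0% and 63.3% of all genes tested. In 34 members every shYB1 value lay above every vector value, or 54.0% against 30.1% of all genes, and in 3 members (CSNK2A3, RBM28 and XRN2) every shYB1 value lay below, against 12.5% of all genes. All 21 called members had groups that did not overlap, which is no separate support. A call from 3 libraries a group seldom comes without such separation. For any single gene an exact permutation test of 3 libraries against 3 cannot go below p = 0.1. The levels of tested members ran from 1.5 to 97.1 FPKM with a median of 8.6 FPKM, near the 7.3 FPKM of all genes tested, and the median coefficient of variation between replicates was 4.58%.

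**Figure D2:**
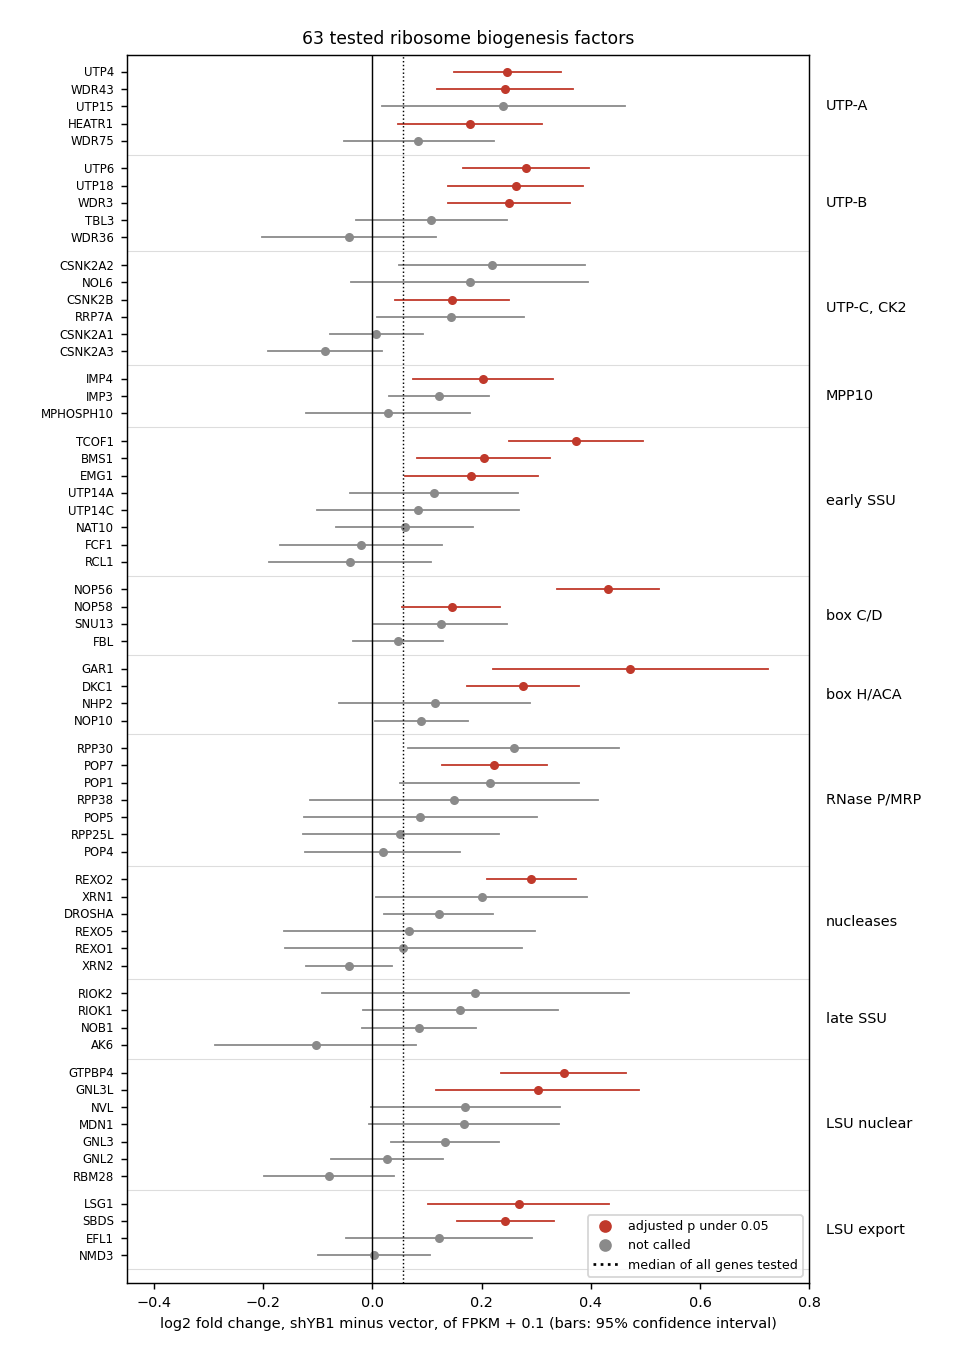
Log2 fold change of FPKM + 0.1, shYB1 minus vector (horizontal axis), of each of the 63 tested members, grouped by role. Points are limma estimates from 3 libraries a group, bars their 95% confidence intervals, and red marks an adjusted p under 0.05. The dotted line is the median of all genes tested, 0.055, and 56 of the 63 points lie above 0.

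The promoters of the members held one short motif more often than promoters at large. RefSeq start regions (GRCh38.p14, 250 bases before to 50 bases after the start of the gene) were matched for 62 of the 71 members. The E-box CACGTG, a palindrome recognised by basic helix-loop-helix leucine zipper factors such as MYC and USF1, was in 16 of them (25.8%), against 7.4% of 27305 promoters and 10.6% of the 8665 promoters of tested genes. It began within 30 bases of the start in 13 members (21.0%), against 1.8% of all promoters and 3.0% of those of tested genes. The Y-box core CCAAT, searched on both strands, was in 21 members (33.9%), a share close to the 35.7% of all promoters. TATAAA, searched on both strands, was in the promoter of 1 member, TBL3 (1.6%), against 12.0% of all promoters and 5.0% of those of tested genes.

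The sequences shown here are the start regions of the 4 members called higher whose CACGTG began within 30 bases of the start, with that of NOP56, which rose and holds no CACGTG in this window. They were chosen after the values were seen. Of the 13 members with CACGTG there, FBL, GNL2, MDN1, NAT10, NOL6, NOP10, RCL1 and XRN2 were not called, and PWP2 was too low to test. All 5 genes shown are on the plus strand. The capitals mark the E-box CACGTG and the Y-box core CCAAT, the latter also where it reads ATTGG, its reverse complement.
IMP4 at chr2:130342647-130342946: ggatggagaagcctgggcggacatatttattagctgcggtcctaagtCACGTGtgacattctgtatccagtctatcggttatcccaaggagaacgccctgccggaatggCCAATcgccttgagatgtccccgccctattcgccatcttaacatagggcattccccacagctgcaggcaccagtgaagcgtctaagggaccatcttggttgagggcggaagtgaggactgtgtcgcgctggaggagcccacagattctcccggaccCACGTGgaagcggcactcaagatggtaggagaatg
UTP18 at chr17:51260296-51260595: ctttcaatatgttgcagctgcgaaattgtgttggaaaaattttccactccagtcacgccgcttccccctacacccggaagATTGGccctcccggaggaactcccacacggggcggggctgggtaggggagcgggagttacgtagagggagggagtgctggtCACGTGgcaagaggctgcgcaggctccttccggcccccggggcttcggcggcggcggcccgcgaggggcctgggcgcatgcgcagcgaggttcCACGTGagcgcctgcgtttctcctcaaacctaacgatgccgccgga
UTP4 at chr16:69132399-69132698: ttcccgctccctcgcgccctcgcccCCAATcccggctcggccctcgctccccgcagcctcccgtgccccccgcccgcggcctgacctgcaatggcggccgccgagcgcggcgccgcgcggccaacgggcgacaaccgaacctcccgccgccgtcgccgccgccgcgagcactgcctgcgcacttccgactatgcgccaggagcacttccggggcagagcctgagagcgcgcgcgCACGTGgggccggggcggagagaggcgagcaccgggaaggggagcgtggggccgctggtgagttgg
WDR43 at chr2:28894417-28894716: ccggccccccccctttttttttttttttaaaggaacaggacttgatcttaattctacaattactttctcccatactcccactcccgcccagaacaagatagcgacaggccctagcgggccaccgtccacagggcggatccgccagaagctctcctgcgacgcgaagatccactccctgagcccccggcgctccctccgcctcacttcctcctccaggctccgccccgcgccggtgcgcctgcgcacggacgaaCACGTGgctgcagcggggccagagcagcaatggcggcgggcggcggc
NOP56 at chr20:2652382-2652681: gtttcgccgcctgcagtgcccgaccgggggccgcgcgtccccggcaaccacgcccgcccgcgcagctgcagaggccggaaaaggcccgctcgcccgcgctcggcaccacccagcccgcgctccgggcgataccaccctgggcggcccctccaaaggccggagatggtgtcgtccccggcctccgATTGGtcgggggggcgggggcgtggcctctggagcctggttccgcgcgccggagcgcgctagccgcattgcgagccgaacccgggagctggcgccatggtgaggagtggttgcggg
Counted from the first base of the gene as 0, the E-box nearest the start began at position 15 in IMP4, 4 in UTP18, −16 in UTP4 and 3 in WDR43, and IMP4 and UTP18 held a second copy at −203 and −89. The Y-box core lay at −141 in IMP4, −170 in UTP18, −225 in UTP4 and −66 in NOP56. Of the tested members with a promoter, 6 of 15 with CACGTG were higher (median log2 fold change 0.168) and 13 of 43 without it (0.143). With CCAAT 8 of 21 were higher (median 0.17) and without it 11 of 37 (0.122). Of all genes tested 18.7% were higher, and that share was not taken by motif. Among the 8665 tested genes with a matched promoter, the medians were 0.071 with CACGTG and 0.054 without it. For CCAAT they were 0.053 with it and 0.058 without it. These are matches of letters in a fixed window and say nothing about which factor is bound.

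The UTP-A and UTP-B complexes, which contact the first stretch of the nascent precursor rRNA, had the largest shares of called members with FPKM as deposited. Each had 60.0% of 5 tested genes, against 18.7% of all genes tested. After rescaling UTP-B kept 60.0%, while UTP-A had 2 of 5 (40.0%), below the box H/ACA list with 2 of 4. Of all genes tested 11.2% were then higher. In lists this short 1 gene moves the share widely, so the order of the lists carries little weight. In UTP-A, whose subunits are also linked to transcription by RNA polymerase I, 3 of 5 members were higher (UTP4, WDR43 and HEATR1), all 5 were above 0, and the median log2 fold change was 0.24. UTP4, the WD-repeat protein also called cirhin (chromosome 16, 69132649 to 69169021), stood at 19.8, 21.0 and 21.2 FPKM in vector and 24.6, 25.4 and 23.7 FPKM in shYB1 cells, with no overlap (log2 fold change 0.25, SE 0.044, adjusted p = 0.00306, limma). WDR43 (chromosome 2, 28894667 to 28948219) stood at 8.06, 8.61 and 7.73 FPKM in vector and at 9.47, 10.0 and 9.38 FPKM in shYB1 cells. The start regions of both, with the E-box near the start, are among the 5 sequences shown. WDR43 rose by 0.24 on the log2 scale (SE 0.056, adjusted p = 0.0109, limma). HEATR1, the largest subunit of the complex, sat at the edge of the threshold (log2 fold change 0.18, adjusted p = 0.0498, limma). It lost the call in 5 of the 6 fits without a library, and exons on the opposite strand overlap 23.2% of its exonic bases. UTP15 had an estimate of 0.24, close to those of UTP4 and WDR43, on values of 1.28 to 1.82 FPKM, with an adjusted p of 0.104 by limma.

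In UTP-B, the complex that bridges the 5′ spacer and U3, 3 of 5 tested members were higher (60.0%, against 18.7% of all genes tested). The median of the 5 was 0.25, and the 3 stayed higher after rescaling. UTP6, the most abundant subunit of the list (chromosome 17, 31860904 to 31901708) stood at 11.8, 11.4 and 11.0 FPKM in vector and at 13.3, 13.6 and 14.7 FPKM in shYB1 cells (log2 fold change 0.28, SE 0.052, adjusted p = 0.00365, limma). Its lowest knockdown value lay well above its highest control value. UTP18 (chromosome 17, 51260546 to 51297933), with 2 E-boxes in its start region, stood at 8.18, 7.79 and 8.41 FPKM in vector and at 10.1, 9.21 and 9.95 FPKM in shYB1 cells (log2 fold change 0.26, SE 0.056, adjusted p = 0.00726, limma). WDR3 (chromosome 1, 117929739 to 117966543) stood at 7.40, 6.99 and 7.16 FPKM against 8.45, 8.82 and 8.42 FPKM (log2 fold change 0.25, SE 0.051, adjusted p = 0.00562, limma). Exons on the opposite strand overlap 17.1% of the exonic bases of WDR3. In each of these 3 subunits the vector and shYB1 values were separate. TBL3, a WD-repeat subunit, stood at 9.47, 10.3 and 11.2 FPKM in vector and 11.2, 10.7 and 11.4 FPKM in shYB1 cells, with overlap (log2 fold change 0.11, adjusted p = 0.23, limma). WDR36 was at −0.04. The remaining UTP-B subunit, PWP2, was too low to test, at 0.139, 0.802 and 0.211 FPKM in vector and 0.126, 0.146 and 0.244 FPKM in shYB1 cells. Of the 50-base words of its transcripts, 88.2% also occur in another annotated gene, so its level is uncertain.

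The UTP-C complex with casein kinase 2, and the MPP10 complex that stabilises the pairing of U3 with the precursor, had 1 call each, in 1 of 6 tested genes (16.7%) and 1 of 3 (33.3%), against 18.7% of all genes tested. The gene called in the UTP-C and kinase list was CSNK2B, the regulatory subunit of casein kinase 2. CSNK2B stood at 64.2, 63.9 and 72.2 FPKM in vector and at 72.8, 73.2 and 75.3 FPKM in shYB1 cells, with the third vector library close to the knockdown values. Its log2 fold change was 0.15 (SE 0.047, adjusted p = 0.0459, limma), and it lost the call in 5 of 6 fits without a library. Of its words 25.1% are shared with other genes, most often a readthrough gene. The catalytic subunits CSNK2A1 and CSNK2A2 had log2 fold changes of 0.01 and 0.22 and were not called (adjusted p = 0.917 and 0.0603, limma). CSNK2A3 is a retrocopy that shares 65.3% of its words with other genes, most often CSNK2A1. CSNK2A3 stood at 11.3, 11.6 and 12.0 FPKM in vector and 11.0, 10.7 and 11.3 FPKM in shYB1 cells. It was not called with FPKM as deposited (log2 fold change −0.09, adjusted p = 0.201) and was called lower after rescaling (−0.14, adjusted p = 0.0417, limma).

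In the MPP10 complex, IMP4 was higher (5.19, 5.41 and 5.32 FPKM in vector against 6.44, 5.84 and 6.10 FPKM in shYB1, adjusted p = 0.0276, limma). IMP3, which is more abundant, stood at 38.7, 39.6 and 41.1 FPKM in vector and at 43.3, 45.1 and 41.5 FPKM in shYB1 cells (log2 fold change 0.12, adjusted p = 0.0522, limma). The groups did not overlap in either gene, but IMP3 missed the threshold and 59.3% of its exonic bases are overlapped on the opposite strand, with the strandedness of the libraries not given. MPHOSPH10 itself was at 0.03.

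Among the other early small-subunit factors 3 of 8 were higher (37.5%, against 18.7% of all genes tested). Of these, TCOF1 had the third largest rise of all members. TCOF1 encodes treacle, the nucleolar adaptor of RNA polymerase I transcription that is mutated in Treacher Collins syndrome (chromosome 5, 150357697 to 150400293). It stood at 7.89, 7.21 and 7.37 FPKM in vector and at 9.30, 10.0 and 9.89 FPKM in shYB1 cells, a 1.3-fold difference with no overlap (log2 fold change 0.37, SE 0.055, adjusted p = 0.00109, limma). BMS1, a GTPase, and EMG1, a methyltransferase of 18S rRNA, were also called, at 0.20 and 0.18 (adjusted p = 0.022 and 0.0355, limma). EMG1 stood at 22.6, 23.6 and 26.2 FPKM in vector and at 27.8, 27.9 and 26.2 FPKM in shYB1 cells, so the third library of each group nearly met. Exons on the opposite strand overlap 49.5% of the exonic bases of EMG1. The cytidine acetyltransferase NAT10 was at 0.06, and FCF1, the nuclease that cuts at the start of 18S rRNA, and RCL1 were at −0.02 and −0.04, all 3 without a call.

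The box C/D snoRNP, which carries the 2′-O-methylation of rRNA, moved unevenly. NOP56, one of its paired scaffold proteins (chromosome 20, 2652632 to 2658393), stood at 30.8, 29.4 and 30.1 FPKM in vector and at 38.5, 41.9 and 41.5 FPKM in shYB1 cells. This 1.35-fold rise had the smallest adjusted p of all members (log2 fold change 0.43, SE 0.042, adjusted p = 9.2e-05, limma, and 0.000264 after rescaling). Its partner NOP58 stood at 18.5, 18.1 and 17.4 FPKM in vector and 19.9, 19.7 and 20.0 FPKM in shYB1 cells (log2 fold change 0.145, adjusted p = 0.0244, limma, and 0.16 after rescaling). FBL, the methyltransferase fibrillarin and the most abundant of the 4, stood at 67.6, 65.8 and 70.5 FPKM in vector and 68.2, 70.5 and 71.9 FPKM in shYB1 cells. Its groups overlapped, and its log2 fold change of 0.05 (95% confidence interval −0.04 to 0.13, adjusted p = 0.384, limma) turned to −0.01 after rescaling. SNU13, the protein that binds the kink-turn of these RNAs, was at 0.125 and not called.

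Both dyskerin and GAR1 rose in the box H/ACA snoRNP, the pseudouridylation machinery whose proteins telomerase shares. GAR1 (chromosome 4, 109815510 to 109824737) had the largest log2 fold change of all members when all 6 libraries were used, on values that varied more than most. It stood at 13.8, 14.4 and 11.3 FPKM in vector and at 16.5, 17.3 and 21.1 FPKM in shYB1 cells, with the lowest vector and the highest shYB1 value both in the third library of their group. Without vector replicate 3 its log2 fold change was 0.365 against 0.431 for NOP56, and without shYB1 replicate 3 it was 0.366 against 0.416, so the first place rested on those libraries. The log2 fold change was 0.47 (SE 0.11, adjusted p = 0.0156, limma), and the adjusted p was 0.0842 when the model held the replicate number as a block. DKC1, the pseudouridine synthase dyskerin (chromosome X, 154762864 to 154777689), stood at 18.9, 20.0 and 20.1 FPKM in vector and at 23.9, 24.9 and 22.7 FPKM in shYB1 cells (log2 fold change 0.28, SE 0.046, adjusted p = 0.00216, limma). NOP10, the most abundant member of all, stood at 97.1, 90.9 and 94.4 FPKM in vector and at 96.8, 104 and 99.3 FPKM in shYB1 cells. It overlapped between groups and was not called (log2 fold change 0.09, adjusted p = 0.115, limma), nor was NHP2 (0.11, adjusted p = 0.315).

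**Figure D3:**
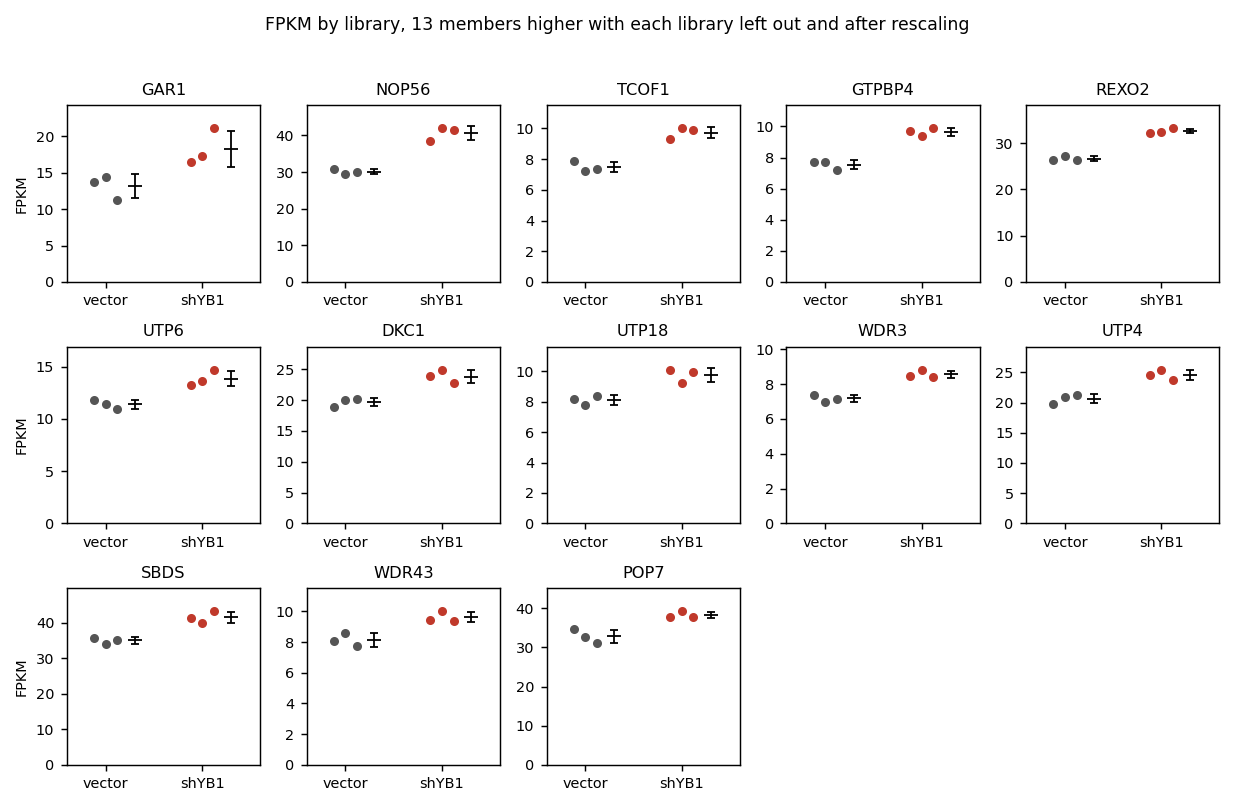
FPKM (vertical axes, each starting at 0) in every library of the 13 members that stayed higher with each library left out and after median-of-ratios rescaling. Grey points are the 3 vector libraries, red points the 3 shYB1 libraries, and the bars show the mean ± SD. In each panel the groups do not overlap, and fold changes run from 1.17 in POP7 to 1.39 in GAR1.

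RNase P and RNase MRP, which share most of their protein subunits and process tRNA and the spacer between the small- and large-subunit rRNAs, had 1 call among 7 tested subunits (14.3%, against 18.7% of all genes tested). POP7, a small subunit that binds the RNA with RPP25 (chromosome 7, 100706121 to 100707486), stood at 34.6, 32.6 and 31.2 FPKM in vector and 37.7, 39.2 and 37.8 FPKM in shYB1 cells (log2 fold change 0.22, SE 0.043, adjusted p = 0.0046, limma). RPP30 and POP1, a scaffold of both enzymes, also had groups without overlap but missed the threshold. Their log2 fold changes were 0.26 and 0.21 (adjusted p = 0.0523 and 0.0561, limma), with RPP30 at only 1.46 to 1.85 FPKM. All 7 estimates were above 0, the smallest being 0.02 in POP4. RPP25 and RPP40 were below the filter at 0.248 to 0.725 FPKM and were not tested.

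Among the nucleases, REXO2 was the 1 member called of 6 tested (16.7%, near the 18.7% of all genes tested). REXO2, an oligoribonuclease known mainly from mitochondria that clears short RNA fragments (chromosome 11, 114439467 to 114450279), stood at 26.3, 27.3 and 26.4 FPKM in vector and at 32.2, 32.5 and 33.2 FPKM in shYB1 cells. Replicates lay close together in both groups (log2 fold change 0.29, SE 0.036, adjusted p = 0.000395, limma). The 5′ exonuclease XRN1 was at 0.20 (adjusted p = 0.118), DROSHA, better known for cutting microRNA precursors, at 0.12 (adjusted p = 0.0707), and XRN2, the nuclear 5′ exonuclease that trims pre-rRNA spacers, at −0.04 (adjusted p = 0.409, limma). XRN2 stood at 24.7, 24.6 and 24.5 FPKM in vector and 23.8, 24.2 and 23.7 FPKM in shYB1 cells, separate groups with a very small difference. Late small-subunit maturation gave 0 calls among 4 by limma, 0 at an unadjusted p under 0.05 and 0 after rescaling. Of all genes tested 18.7% were called higher, so 0 of 4 says little about this step. NOB1, the endonuclease that makes the end of 18S rRNA, stood at 23.1, 21.4 and 21.6 FPKM in vector and at 23.0, 22.7 and 24.6 FPKM in shYB1 cells, with overlap (log2 fold change 0.09, 95% confidence interval −0.02 to 0.19). The kinases RIOK1 and RIOK2 were at 0.16 and 0.19 on levels of 1.30 to 2.46 FPKM. AK6 was at −0.10, the lowest estimate of any member, and it shares 22.9% of its words with other genes, most often TAF9.

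Large-subunit assembly in the nucleus gave 2 calls among 7 (28.6%, against 18.7% of all genes tested), both GTPases. GTPBP4, the GTPase that loads on early large-subunit precursors (chromosome 10, 988434 to 1019932), stood at 7.74, 7.70 and 7.21 FPKM in vector and at 9.71, 9.37 and 9.87 FPKM in shYB1 cells (log2 fold change 0.35, SE 0.052, adjusted p = 0.00108, limma). The difference, 1.27-fold, was several times the spread within either group. Exons on the opposite strand overlap 19.1% of the exonic bases of GTPBP4. GNL3L (chromosome X, 54530219 to 54645854), a relative of nucleostemin, stood at 2.45, 2.64 and 2.74 FPKM in vector and 3.08, 3.07 and 3.58 FPKM in shYB1 cells (log2 fold change 0.30, SE 0.084, adjusted p = 0.0242, limma, and 0.0526 after rescaling). Nucleostemin itself, GNL3, stood at 24.7, 23.7 and 26.1 FPKM against 27.6, 27.7 and 26.4 FPKM. It did not overlap between groups and just missed the threshold (log2 fold change 0.13, adjusted p = 0.0508, limma). The AAA ATPases MDN1 and NVL were both at 0.17 (adjusted p = 0.14 and 0.133), GNL2 was at 0.03, and RBM28 at −0.08 (adjusted p = 0.306, limma).

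Of the 4 factors of export and cytoplasmic release, 2 were higher (SBDS and LSG1), against 18.7% of all genes tested. After rescaling 1 of the 4 stayed higher, against 11.2% of all genes tested. SBDS kept the call (adjusted p = 0.0103) and LSG1 lost it (adjusted p = 0.0544, limma). SBDS, which with the GTPase EFL1 removes eIF6 from the new large subunit and is mutated in Shwachman-Diamond syndrome (chromosome 7, 66987680 to 66995586), stood at 35.8, 34.0 and 35.2 FPKM in vector and at 41.3, 40.0 and 43.2 FPKM in shYB1 cells (log2 fold change 0.24, SE 0.040, adjusted p = 0.00193, limma). Of the words of SBDS, 11.8% are shared with other genes, most often the pseudogene SBDSP1. LSG1, the GTPase that releases the export adaptor NMD3, stood at 3.65, 4.31 and 4.14 FPKM in vector and at 4.71, 5.12 and 4.77 FPKM in shYB1 cells (log2 fold change 0.27, SE 0.075, adjusted p = 0.0247, limma). NMD3 was at a log2 fold change of 0.003 with a 95% confidence interval of −0.10 to 0.11, and EFL1 was at 0.12 with an adjusted p of 0.272 by limma.

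The 4 members listed at 0 in every library were LOC643802, which resembles MPHOSPH10, and LOC100288562, LOC101929601 and LOC101929627, which are annotated as putative GOR exonucleases. SPATA5, an AAA ATPase, was below the filter at 0.273 to 0.386 FPKM. Shared sequence makes further values uncertain. UTP14C shares 74.0% of its words with other genes, most often ALG11, and RRP7A 18.3%, most often with RRP7BP. Opposite-strand exons also overlap 41.9% of the exonic bases of CSNK2A3, 29.9% in TBL3, 27.4% in NHP2, 26.9% in RPP38 and 20.2% in NOB1.

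Some members also house snoRNA genes, which are usually cut out of introns. Inside 5 of the tested members the GENCODE annotation places snoRNA genes, with 5 in NOP56, 3 each in GNL3, NOP58 and WDR43, and 2 in DKC1. Of these 5 members 4 were higher, all but GNL3, and of the 58 without one 17 were higher. Across the table, 42 of 145 tested genes with a snoRNA gene inside were higher (29.0%) and 18.6% of those without, while the median log2 fold change was 0.055 in both. The snoRNAs themselves were not analysed here.

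Ribosome biogenesis genes that the pathway annotation leaves out were more often higher than lower. In 4 lists of 102 such genes, 101 were tested. The lists were chosen with earlier results of these data known, so their counts are a description and no separate support for those of the members. By limma at an adjusted p under 0.05, 48 were higher (47.5%, against 18.7% of all genes tested) and 1 was lower (against 6.93%). Their median log2 fold change was 0.188, against 0.055 for all genes tested. After median-of-ratios rescaling 30 were higher (29.7%, against 11.2%) and 2 lower (DDX47 and NOP53, against 12.2%). The median was then 0.133, against −0.001 for all genes tested. Of large-subunit factors 22 of 42 were higher, of small-subunit factors 20 of 37, and of nucleolar organisers and chaperones 4 of 7. The RNA polymerase I machinery had the smallest share, 2 of 15 (13.3%), below the 18.7% of all genes, though 12 of its 15 estimates were above 0. The largest rises were those of NOP16, BOP1 and PNO1. NOP16, a large-subunit factor, stood at 2.36, 2.31 and 2.36 FPKM in vector and at 2.97, 3.67 and 4.39 FPKM in shYB1 cells. BOP1, a partner of PES1 and WDR12 in large-subunit processing, stood at 10.9, 11.0 and 14.2 FPKM against 17.8, 16.6 and 18.0 FPKM. PNO1, a partner of NOB1 on the small subunit, stood at 2.88, 2.90 and 2.28 FPKM against 3.92, 3.88 and 3.76 FPKM. Their log2 fold changes were 0.61, 0.55 and 0.51, larger than any among the 71 members. NOP53 was the exception, with 123, 128 and 137 FPKM in vector and 106, 105 and 115 FPKM in shYB1 cells, a fall of a nucleolar factor of exosome recruitment (log2 fold change −0.25, adjusted p = 0.00396, limma).

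**Figure D4:**
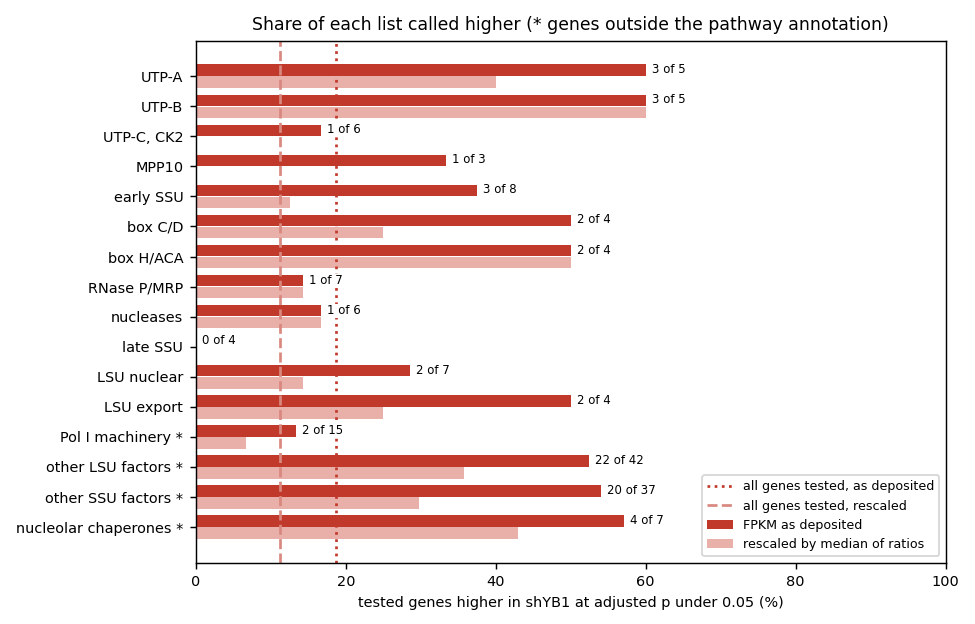
Percentage of tested genes called higher in shYB1 (horizontal axis, adjusted p under 0.05 by limma) in each of the 12 role lists of members and the 4 lists of other biogenesis genes (starred), with FPKM as deposited in dark bars and after median-of-ratios rescaling in light bars. Vertical lines give all genes tested, 18.7% and 11.2%. The UTP-A and UTP-B lists reach 60.0% with 3 of 5 genes each, and late small-subunit maturation has no called gene.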

How the data were processed

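Bulk RNA of 3 shYB1 and 3 vector libraries of 786-O cells was sequenced, and groups and replicate numbers were taken from the sample labels. The authors deposited 1 table of FPKM per gene and library with GO and KEGG annotation, and all 6 value columns were used, with 0 left out. The submitters' processing notes name Trimmomatic, HISAT2, Cufflinks, HTSeq, DESeq and GRCh38, whose versions are not given in the sources used here. FPKM hold no counts, so the depth is unknown, and the spacing of values under 0.08 FPKM put it between 0.956 and 1.09 times that of shYB1 replicate 1.

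Genes whose mean reached 1 FPKM were kept (10439 of 20030, with 4042 at 0 in all libraries), and log2(FPKM + 0.1) was compared by limma 3.58.1 in R 4.3.3 (lmFit, then eBayes with trend and robust prior). Tests were two-sided, adjusted by Benjamini-Hochberg over the genes tested and called at 0.05. Fold changes are on this scale, which understates changes of low genes. Median-of-ratios factors were computed over genes above 0 in all 6 libraries. The members, role lists and outside lists were chosen with earlier results of these data known. Named genes were the 8 members with the largest called changes in each direction, the most abundant member of each of 12 role lists, YBX1, and the 3 largest called changes each way of the outside lists. Genes named beyond that rule were chosen after their values were seen. GTPBP4 and the 4 LOC genes were given roles after the table was read.

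Alternatives were pseudocounts of 1 and 0.01, no filter or a mean of 5 FPKM, median-of-ratios, common-total and quantile scaling, a prior without trend, a replicate block, and each library left out. The fit was tested on simulated data with known changes. These were larger than any change among the members, so the test does not cover changes of their size. Coordinates and promoters are RefSeq (GRCh38.p14), matched by gene ID. GENCODE 29 gave snoRNA genes, exon overlaps and 50-base words shared between transcripts. Python 3.11.15 with NumPy 2.4.6, pandas 2.3.3 and matplotlib 3.10.9 was used for summaries and plots.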

Additional observations from a re-analysis of the deposited data

How the results depend on the processing

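Scaling moved the counts most. The members called higher numbered 13 and those called lower 1 (CSNK2A3) after median-of-ratios scaling, and 14 and 1 (CSNK2A3) after quantile normalization, against 21 and 0 with FPKM as deposited. The other biogenesis genes gave 30 higher and 2 lower with median-of-ratios scaling and 28 higher and 2 lower with quantile normalization (both DDX47 and NOP53), against 48 and 1. Of all genes tested, 11.2% were higher with median-of-ratios scaling and 12.1% with quantile normalization, against 18.7% with FPKM as deposited. FBL changed sign to −0.01 with median-of-ratios scaling. With 1 library left out, members higher ranged from 14 to 23 (22.2% to 36.5%, against 12.7% to 18.7% of all genes tested). Members lower stayed at 0, and the members' median ranged from 0.126 to 0.158. Other biogenesis genes higher ranged from 29 (without vector replicate 1) to 46, and those lower from 1 to 2, the added gene being SURF6 without vector replicate 2 and TRMT112 without shYB1 replicate 3. With no filter 16 of 67 members were higher (23.9%, against 9.89% of all genes tested), and at a mean of 5 FPKM 22 of 45 (48.9%, against 26.0%). A common total gave 24 (38.1%, against 18.6%) and a prior without trend 18 (28.6%, against 15.9%). Either other pseudocount gave 21 (33.3%, against 18.8% with 1 and 18.7% with 0.01). Of 284 values for 19 named genes under 15 alternatives, 253 kept direction and side of the threshold, 23 lost the call, 7 gained one and 1 changed sign. The replicate numbers did not pair the libraries. Deviations from the group mean correlated at −0.169 to −0.00824 for the 3 pairs with the same number and at −0.0507 to 0.113 for the 6 others. With the replicate block 21 members were higher (33.3%, against 19.9% of all genes tested), 19 of them among the 21 without it, and 0 lower. The members' median was then 0.145, and the other biogenesis genes gave 49 higher and 1 lower. The depth behind each FPKM value is unknown, and 8 members were too low to test.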
